A study of Mus musculus with 10 samples.

Results

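The region described here is the stretch of mouse chromosome 2 that holds Gata3 and the long gene-poor interval downstream of it. All open chromatin regions (OCRs) of the deposited count table that lay inside a window of 950 kb were taken, whatever their values. These were 61 of the 50039 OCRs in the table, and they spanned chr2:9058409-9998086 (mm10). Gata3 is on the minus strand, with its main RefSeq start site (TSS) at position 9878600 and its end at 9857078, so its body takes up 21.5 kb. Each OCR is named by the distance of its centre from that TSS, with downstream positive. The OCRs ran from -119.2 kb to +819.9 kb, 11 of them upstream and 50 downstream of the TSS. Their width ran from 500 to 1134 bp (median 539 bp).

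GATA3 is a zinc-finger transcription factor needed for the development and maintenance of group 2 innate lymphoid cells (ILC2s) and of T helper 2 cells, where it binds the cytokine genes of type 2 immunity. Its dose matters, and enhancers that act in lymphocytes are known to lie far downstream of the gene. ATAC-seq reads the opening of such elements through cuts made by a transposase in accessible DNA, and it does not measure the transcript.

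ATAC-seq was carried out on ILC2s sorted from 5 tissues of wild-type C57BL/6 male mice aged 6 weeks: large intestine (LI), small intestine (SI), pancreas, lung and bone marrow (BM). There were 2 libraries a tissue, each of 50000 cells, and a library pooled 10 mice in LI and SI and 16 in the other tissues. All cells were negative for lineage markers. BM cells were sorted on ST2 and CD25, those of LI, lung and pancreas also on CD45 and CD127, and those of SI on CD127, CD45, KLRG1 and a Thy1 level that the labels call intermediate and the methods call low. The gate for SI did not use ST2 or CD25, and BM cells were sorted on another machine. Gate and machine therefore changed with tissue and cannot be told apart from it. In such bulk libraries, a smaller share of cells with an open element and a lower opening in every cell cannot be told apart either.

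Libraries held 10282987 to 32797872 counted reads, and the OCR with the most reads took 1.78 to 9% of a library. Levels below are CPM, the count of an OCR relative to its library's total, after TMM scaling, which sets the libraries to a common scale over most OCRs. Replicates differed by more than sampling noise in every tissue, with a chi-square per degree of freedom from 12.8 in lung to 56 in LI. The labels do not say that the replicates of a tissue came from separate groups of mice, while the methods call them biological duplicates. Of the 10 ILC2 markers looked up, 9 had an OCR at their promoter, with a summed level of 250 to 369 CPM. Promoter OCRs were found for 2 of 5 T cell markers, Cd3e and Cd3g, whose summed level was 4.7 to 10.0 CPM, for Kit among 4 mast cell or basophil markers (46.7 to 74.9 CPM), and for Cdh1 among 3 epithelial markers (2.89 to 9.49 CPM). Of these 4, Cd3g and Cdh1 differed among tissues by the test described below. Cd3g had 1.32 and 1.38 CPM in BM, 5.30 and 5.93 in pancreas and 2.35 to 5.61 elsewhere (adjusted p = 0.00453), and Cdh1 had 2.89 and 3.54 CPM in BM, 6.01 and 9.49 in pancreas and 4.43 to 6.26 elsewhere (adjusted p = 0.0459). Both were lowest in BM and highest in pancreas by tissue mean. Of the 61 OCRs of the window, 32.8% were lowest in BM and 32.8% highest in pancreas. The shares of the table's OCRs away from promoters were 29.9% and 19.5%. No promoter OCR was in the table for the markers of B cells, myeloid cells, ILC3s, ILC1s or NK cells, endothelium and acinar cells. Nor was there one for Cpa3, Fcer1a and Ms4a2, the mast cell or basophil markers other than Kit. The summed levels cover different numbers of genes and cannot be compared between cell types. The part of other cell types in the results below was not tested.

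Sequences are shown for 6 OCRs: the TSS, the most open distal OCR, and 4 distal OCRs that stood out in LI, in lung and SI, in BM or in SI. Each is the plus strand of RefSeq GRCm38.p6 over the 300 bases around the OCR's centre. Capitals mark exact matches on either strand to AGATAA (the core bound by GATA factors), TGANTCA (AP-1, where N is any base), TGTGGT (RUNX) or AGGTCA (ROR). None of these strings contains another, and a match is only a string of letters, not a bound site. The first window lies at chr2:9878413-9878712 on the first exon and TSS of Gata3, and the others follow from TSS to distal end at chr2:9776032-9776331, chr2:9594055-9594354, chr2:9574217-9574516 and chr2:9368034-9368333, with the upstream OCR at chr2:9946733-9947032 last.
Gata3 TSS: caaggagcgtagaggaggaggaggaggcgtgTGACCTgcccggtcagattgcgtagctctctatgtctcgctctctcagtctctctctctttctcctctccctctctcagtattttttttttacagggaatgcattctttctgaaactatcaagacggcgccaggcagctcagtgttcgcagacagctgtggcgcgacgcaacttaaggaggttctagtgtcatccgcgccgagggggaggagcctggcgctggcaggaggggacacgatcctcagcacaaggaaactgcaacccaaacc
+102.4 kb: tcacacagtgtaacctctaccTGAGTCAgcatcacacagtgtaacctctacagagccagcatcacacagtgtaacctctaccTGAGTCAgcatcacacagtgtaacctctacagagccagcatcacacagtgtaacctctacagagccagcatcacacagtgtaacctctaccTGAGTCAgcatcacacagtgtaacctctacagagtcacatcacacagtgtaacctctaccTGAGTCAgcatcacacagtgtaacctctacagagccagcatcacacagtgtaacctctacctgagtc
+284.4 kb: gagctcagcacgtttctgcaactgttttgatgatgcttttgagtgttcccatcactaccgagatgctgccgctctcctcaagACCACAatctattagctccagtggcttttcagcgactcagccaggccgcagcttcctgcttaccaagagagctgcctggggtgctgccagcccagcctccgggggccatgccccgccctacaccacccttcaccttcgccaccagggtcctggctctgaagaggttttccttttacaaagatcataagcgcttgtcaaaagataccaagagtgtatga
+304.2 kb: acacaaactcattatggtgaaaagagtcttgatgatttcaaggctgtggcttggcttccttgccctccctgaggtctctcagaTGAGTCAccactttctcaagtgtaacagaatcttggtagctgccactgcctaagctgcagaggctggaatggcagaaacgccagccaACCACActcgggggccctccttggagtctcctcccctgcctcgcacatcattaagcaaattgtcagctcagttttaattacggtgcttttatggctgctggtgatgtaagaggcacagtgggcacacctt
+510.4 kb: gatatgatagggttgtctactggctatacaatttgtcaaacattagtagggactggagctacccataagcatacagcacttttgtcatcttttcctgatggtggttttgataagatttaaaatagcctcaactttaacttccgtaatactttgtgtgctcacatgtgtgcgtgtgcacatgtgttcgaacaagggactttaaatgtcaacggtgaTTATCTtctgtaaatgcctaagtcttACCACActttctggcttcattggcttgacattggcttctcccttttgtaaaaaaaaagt
-68.3 kb: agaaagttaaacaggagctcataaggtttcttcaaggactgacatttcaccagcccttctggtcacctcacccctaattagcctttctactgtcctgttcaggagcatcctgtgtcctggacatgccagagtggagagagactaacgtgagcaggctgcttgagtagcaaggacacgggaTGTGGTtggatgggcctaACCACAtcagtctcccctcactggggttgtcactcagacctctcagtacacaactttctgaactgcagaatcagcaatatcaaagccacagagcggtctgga

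The +102.4 kb sequence is a tandem repeat. The unit with the AP-1 letters TGAGTCA recurs through the window, and its 4 matches start at bases 22, 83, 174 and 234. Over the whole OCR, 76.8% of all 32-base words were found at more than 1 place of the assembled chromosomes, 67.5% recurred inside the OCR itself, and 38.9% were found outside it. The second most repetitive OCR was -114.0 kb, with 25.5% of its words at more than 1 place and 87.4% of its bases marked as repeat in the assembly. The other OCRs were at 11.5% or less, and 49 of the 61 held no word found more than once. Only uniquely mapped reads had been counted, so levels at +102.4 kb and -114.0 kb rest on the part of each OCR that reads could be placed on.

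At the gene itself, accessibility was high and the sums over promoter and gene stayed within a ratio of 1.13 between tissues. Single OCRs there differed more, with a median ratio of 1.41 between the highest and lowest tissue. For the 45 OCRs downstream of the gene that median was 2.28. Both OCRs at the Gata3 promoter were open in all 10 libraries, and neither passed the test for a difference among tissues. The OCR centred 1.0 kb upstream of the TSS (chr2:9879320-9879830, in the first intron of a longer predicted Gata3 transcript) had 41.9 and 49.9 CPM in LI, 50.8 and 49.9 in pancreas, 41.8 and 53.3 in lung, 56.6 and 50.9 in BM, and 46.8 and 46.8 in SI. The BM libraries overlapped lung and lay at or just above the other three, and all libraries outside BM stayed within 41.8 to 53.3 CPM. The adjusted p over the 5 tissues was 0.785, from edgeR's quasi-likelihood F test with Benjamini-Hochberg adjustment over all 49981 OCRs with a count, as are the adjusted p-values below. The most distant pair, BM against LI, differed by 0.23 ± 0.19 on the log2 scale (SE).

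The OCR over the TSS (chr2:9878281-9878843, first exon) had 16.4 and 24.9 CPM in LI, 27.1 and 22.2 in pancreas, 32.1 and 28.1 in lung, 34.5 and 32.4 in BM, and 22.4 and 23.5 in SI. BM lay above every other library, lung just below it, and the other three overlapped. In the pair with the largest difference, BM exceeded LI by 0.68 ± 0.22 on the log2 scale (SE; adjusted p = 0.0272). Over the 5 tissues the adjusted p was 0.0731 and did not pass. DESeq2 gave 0.0393, and the value was 0.0315 without LI replicate 2. Within the gene, the intronic OCRs at +7.3 kb (11.1 to 18.9 CPM) and +11.1 kb (18.0 to 33.0 CPM) had the largest p-values among the more open OCRs of the window, with adjusted p of 0.897 and 0.895. The intronic OCR at +18.3 kb was the 1 of 6 promoter and gene OCRs that passed, with an adjusted p of 0.0237. It was highest in pancreas (40.4 and 28.9 CPM) and lowest in lung (22.7 and 19.8) and SI (19.5 and 21.1). At the intronic OCR of +17.5 kb, LI exceeded BM by 0.71 ± 0.25 on the log2 scale (SE; adjusted p = 0.0386). The test over 5 tissues did not pass there (adjusted p = 0.188).

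Away from the gene, a larger share of OCRs passed. Of the 61 OCRs, 36 (59.0%) differed among tissues at an adjusted p under 0.05, against 44.2% of all OCRs tested and 48.0% of those away from promoters. By distance, 5 of 10 OCRs passed upstream of the promoter, 1 of 6 at the promoter and gene, 6 of 12 from the gene's end to 200 kb, 5 of 6 from 200 to 400 kb, 11 of 15 from 400 to 600 kb and 8 of 12 beyond 600 kb. The 45 OCRs downstream of the gene thus held 30 calls (66.7%). Their tissue means had a median SD of 0.50 on the log2 scale, against 0.18 for the 6 OCRs of promoter and gene and 0.37 for all OCRs of the table. That last value includes promoter OCRs, of which 31.7% passed over the table. The median SD between replicates was 0.30 over the window and 0.29 over the table.

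**Figure D1:**
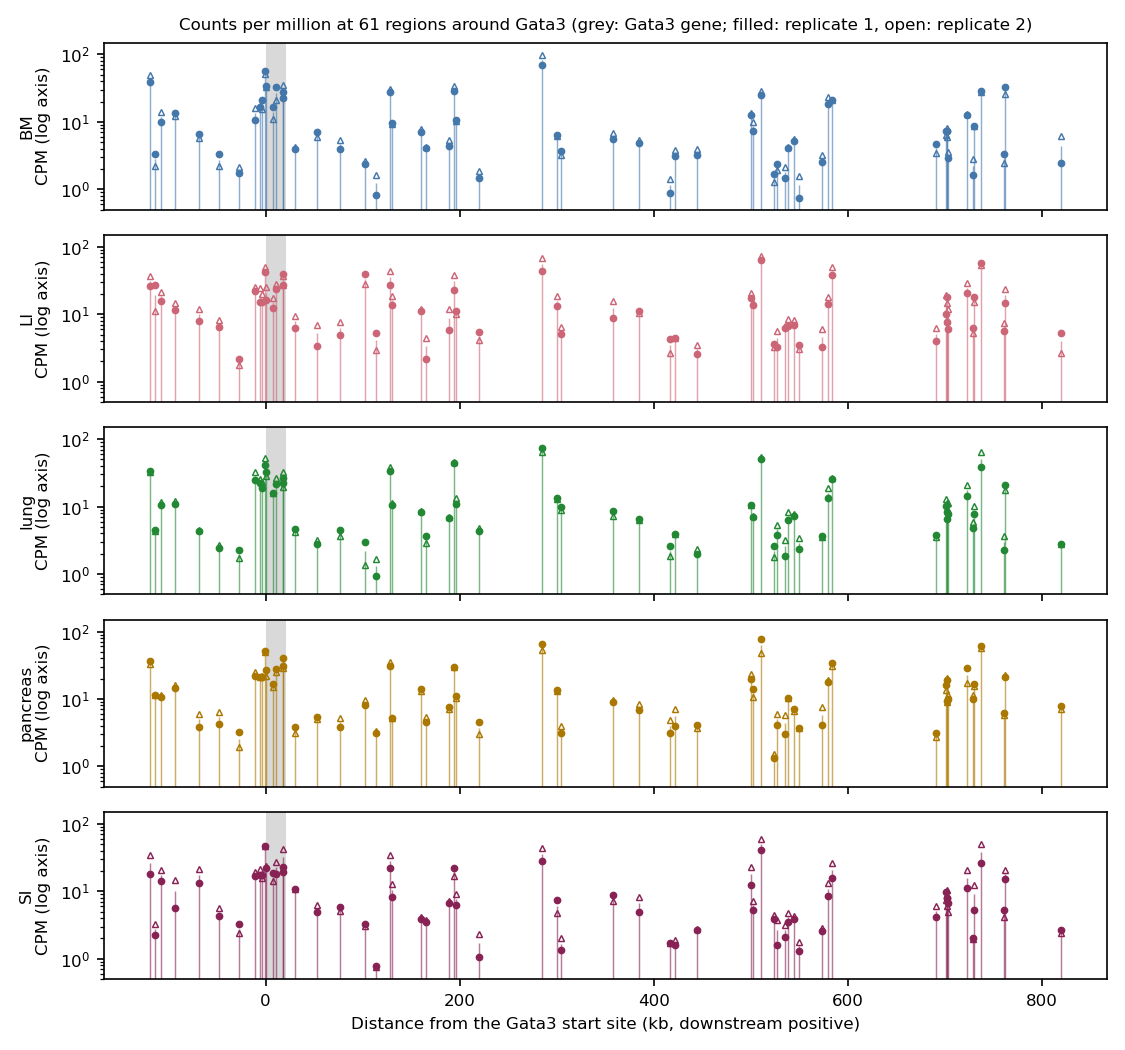
CPM (log axis) of the 61 OCRs against distance from the Gata3 TSS in kb, 1 panel per tissue. Filled circles are replicate 1, open triangles replicate 2, lines end at the tissue mean, and the grey band is the Gata3 gene. Downstream of the gene the highest mean is that of the +284.4 kb OCR in BM and lung and that of the +510.4 kb OCR in LI, pancreas and SI.

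Several settings bear on that excess over the table. After trends of each library in GC content and OCR width were removed, 29 OCRs (47.5%) passed, against 42.4% of all. With library size alone as the scale, 31 (50.8%) passed, against 48.7%. Leaving out BM replicate 1 gave the lowest count, 26 (42.6% against 31.4% of all). Without the repetitive OCRs at +102.4 kb and -114.0 kb, 34 of 59 (57.6%) passed.

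The OCRs of the window tended to be most open in LI and pancreas and least open in SI. By tissue mean, LI was highest at 21 and pancreas at 20 of the 61 OCRs (34.4% and 32.8%), against 17.9% and 19.5% of the table's OCRs away from promoters. SI was lowest at 26 (42.6% against 21.5% away from promoters). BM was lowest at 20 (32.8%), a share near the 29.9% of OCRs away from promoters. The order of lowest tissues depended on the scale. With library size alone, LI was highest at 16 (26.2% against 8.98% of all OCRs) and pancreas at 15 (24.6% against 10.8%), whereas lung was highest at 17, a share (27.9%) near its 27.6% of all. On that scale BM was lowest at 29 (47.5% against 29.9% of all) and SI at 14 (23.0% against 12.5%). That scale also moved the median of all OCRs, by -0.09 in LI and -0.12 in pancreas and by 0.15 in lung and in SI (log2, from the mean of the tissues). On the same scale the median of the 61 OCRs stood at 0.20 in LI, 0.16 in pancreas, 0.10 in lung, -0.13 in SI and -0.33 in BM. With TMM these medians were 0.31, 0.26, -0.04, -0.26 and -0.26, while those of all OCRs lay between -0.02 and 0.02.

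**Figure D2:**
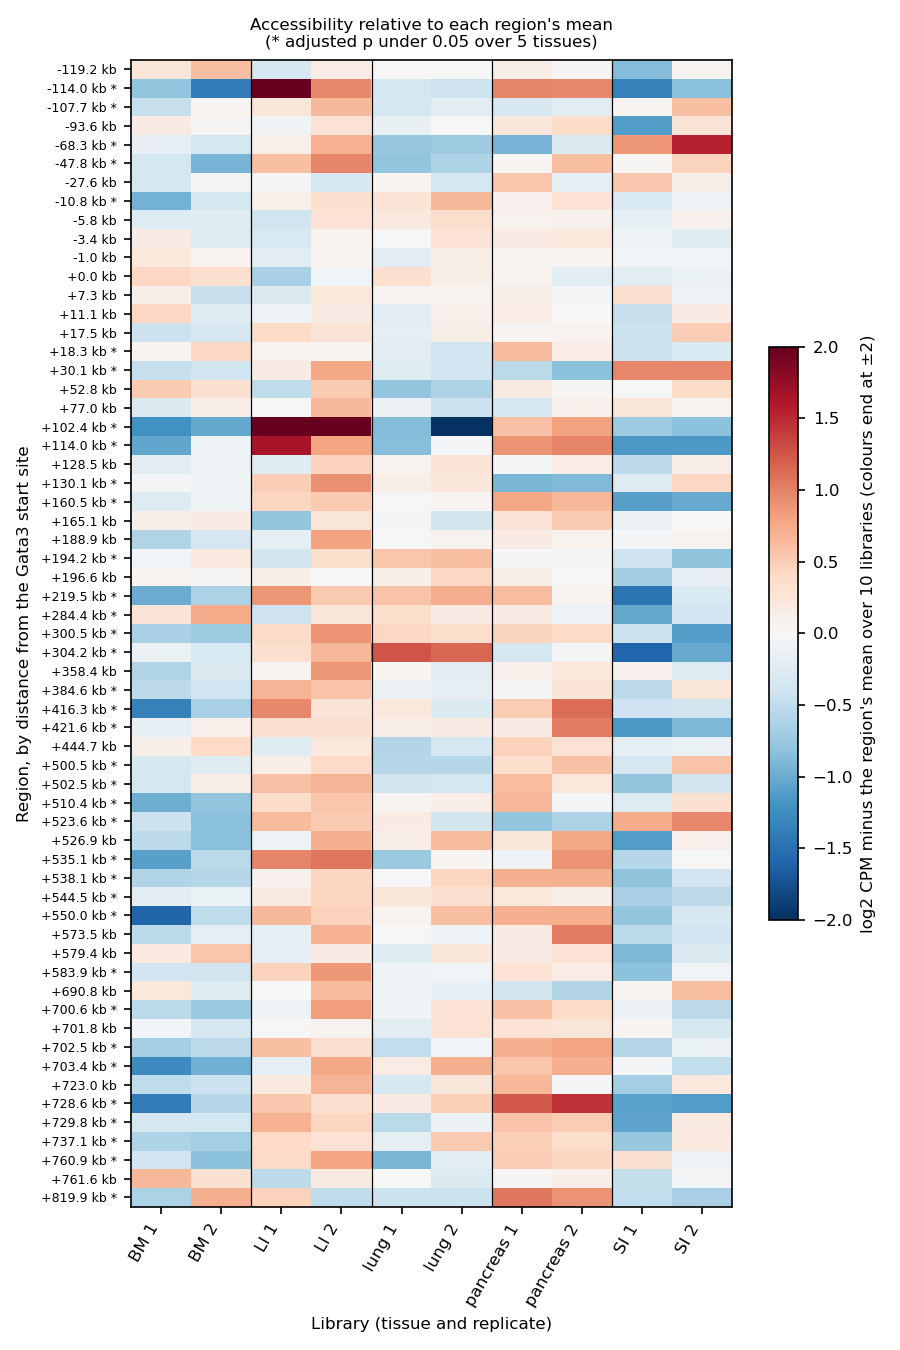
log2 CPM of each OCR (rows, by distance from the TSS) in each library (columns) minus the OCR's mean over the 10 libraries, with colours ending at ±2. Stars mark the 36 OCRs with an adjusted p under 0.05. The rows next to the TSS are pale, and red rows in LI and pancreas with blue in SI or BM are frequent downstream.

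Summed levels describe the same. The 6 OCRs of promoter and gene added up to 172 ± 15.8 CPM in LI, 183 ± 14.3 in pancreas, 168 ± 11.4 in lung, 182 ± 11.3 in BM and 162 ± 19.5 in SI (SD, n = 2), a ratio of 1.13 between the highest and lowest tissue. The 45 downstream OCRs added up to 605 and 741 CPM in LI, 647 and 608 in pancreas, 523 and 578 in lung, 432 and 482 in BM, and 363 and 493 in SI, a ratio of 1.57. Both LI and both pancreas libraries lay above every BM, lung and SI library. The SI libraries were far apart, the lower one below and the higher one above both BM libraries. Without the +102.4 kb OCR the LI mean was 640 ± 104 CPM, compared with 673 ± 96.3 with it. Sums weigh open OCRs most, opposite differences cancel in them, and they were not tested.

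**Figure D3:**
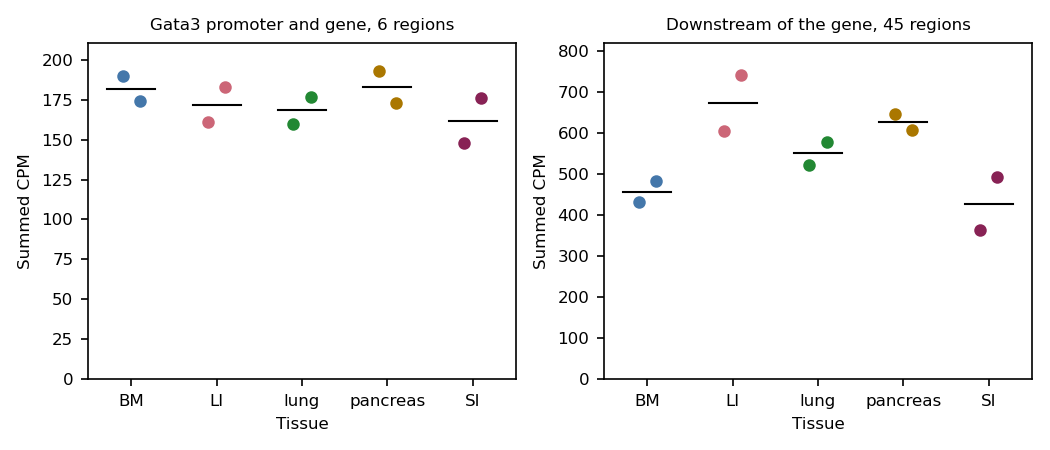
CPM summed over the 6 OCRs of promoter and gene (left) and over the 45 OCRs downstream of the gene (right), by tissue. Points are libraries and lines the means. The left panel spans 148 to 193 CPM with overlapping tissues, and the right panel 363 to 741 CPM.

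Between pairs of tissues, LI and BM had the most differences. At an adjusted p under 0.05, 30 OCRs (49.2%) were higher in LI than in BM, against 18.3% of all OCRs. The OCR over the Gata3 TSS was the 1 that was higher in BM (1.64%, against 12.6%). The count of OCRs higher in LI was unstable. It was 12 once trends in GC content and width were taken out (19.7% against 14.6% of all OCRs). It also fell without either LI library or BM replicate 2. The fall was largest without BM replicate 1, where the share in the window came close to that of all OCRs. Pancreas was higher than BM at 16 OCRs (26.2% against 14.3% of all) and lower at 1 (1.64% against 9.89% of all). The count for higher in pancreas was 10 once trends in width and GC content were taken out (16.4% against 11.4% of all). It went up or down with the library left out, and so did the share of all OCRs. Against SI, LI was higher at 12 OCRs (19.7% against 6.9% of all), pancreas at 14 (23.0% against 12% of all) and lung at 10 (16.4% against 9.86% of all). With library size alone as the scale, LI was higher than SI at 9 OCRs (14.8% against 4.6% of all) and pancreas at 10 (16.4% against 8.68%). The LI and pancreas counts against SI went up or down with the library left out, and so did their shares of all OCRs. SI was higher than BM at 4 OCRs (6.56% against 15.1% of all) and BM higher than SI at 8 (13.1% against 10.7% of all). Lung was higher than BM at 8 (13.1% against 11.5% of all) and lower at 1 (1.64% against 7.56%). LI was higher than lung at 8 (13.1% against 8.18%) and than pancreas at 3 (4.92% against 2.01%). Pancreas was higher than lung at 4 (6.56% against 4.2%) and lower at 2 (3.28% against 1.62%). SI was higher than pancreas at 4 (6.56% against 8.45%) and than lung at 2 (3.28% against 11.1%).

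A tissue-specific OCR was taken as one that was higher than each of the other 4 tissues in its own comparison, and a commonly decreased OCR as one that was lower. The study called these with DESeq2 and does not say whether its p-values were adjusted, and here an unadjusted p under 0.05 from edgeR was used in each comparison. By this rule 1 OCR was higher in LI (1.3% of all OCRs), 2 in lung (1.3%, and 1 OCR with DESeq2), 1 in pancreas (1.43%) and 1 in SI (2.8%). Lower OCRs numbered 6 in SI (3.59% of all), 2 in BM (6.63%), 1 in lung (1.72%) and 1 in pancreas (0.572%). No OCR was higher in BM than in each other tissue by edgeR or by DESeq2 (4.5% of all OCRs with edgeR), and 2 were once trends in GC content and width were taken out. In LI and SI alike, 2 OCRs were higher than in BM, lung and pancreas (2.18% of all).

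The OCR at +102.4 kb (chr2:9775886-9776477, intergenic) was the LI-specific one and had the smallest p of the window. Its levels were 39.1 and 28.1 CPM in LI, 8.13 and 9.49 in pancreas, 2.35 and 2.67 in BM, 2.98 and 1.38 in lung, and 3.27 and 3.07 in SI. LI did not overlap any tissue, and pancreas lay between LI and the other three. LI exceeded pancreas by 1.93 ± 0.31 (log2, SE; adjusted p = 0.00317), SI by 3.40 ± 0.33, BM by 3.74 ± 0.34 and lung by 3.96 ± 0.34. Over 5 tissues the adjusted p was 4.97e-07, and the call held in each setting tried. This is the tandem repeat printed above, and the part of read placement in its level was not tested.

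The intronic Taf3 OCR at -114.0 kb (chr2:9992249-9992869) was also most open in LI and pancreas by tissue mean. Taf3 codes for a subunit of the general transcription factor TFIID. It had 26.8 and 11.3 CPM in LI, 11.4 and 11.3 in pancreas, 4.51 and 4.36 in lung, 3.38 and 2.21 in BM, and 2.26 and 3.24 in SI. The lower LI library lay at the level of pancreas, and both tissues lay above the other three. The adjusted p over tissues was 2.86e-05, and LI exceeded BM by 2.76 ± 0.38 on the log2 scale (adjusted p = 7.76e-05), while LI and pancreas differed by 0.73 ± 0.35 (adjusted p = 0.333). On the other side of the gene, the intergenic OCR at +114.0 kb was also higher in LI and pancreas, at low levels. It had 5.32 and 2.95 CPM in LI, 3.18 and 3.34 in pancreas, and 0.766 to 1.68 in the other libraries (adjusted p = 0.00403). This OCR was named after its values were seen.

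The intestinal tissues shared 2 OCRs. At -68.3 kb (chr2:9946576-9947188, an intron of Taf3), levels were 13.5 and 21.5 CPM in SI, 7.93 and 11.9 in LI, 6.56 and 5.75 in BM, 4.35 and 4.50 in lung, and 3.89 and 6.04 in pancreas. SI lay above all other libraries and LI above the other three tissues (adjusted p over tissues 2.18e-04). SI exceeded LI by 0.81 ± 0.30 (adjusted p = 0.106), BM by 1.51 ± 0.30 and lung by 1.98 ± 0.31 on the log2 scale. The SI call was lost without SI replicate 2 or LI replicate 1, and the intestinal call without LI replicate 2, pancreas replicate 1 or either BM library and with either trend removed.

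At +30.1 kb (chr2:9848234-9848791, the first OCR past the gene's end), levels were 10.8 and 10.8 CPM in SI, 6.19 and 9.47 in LI, 4.01 and 4.23 in BM, 4.67 and 4.25 in lung, and 3.83 and 3.13 in pancreas. Both intestinal tissues lay above the other three without overlap (adjusted p = 7.87e-04). SI exceeded BM by 1.39 ± 0.29 and LI exceeded it by 0.94 ± 0.29 (log2; adjusted p = 0.00207 and 0.0222). The intestinal call needed LI replicate 2 and lung replicate 2, and it was lost when library size alone was the scale.

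The most open OCR of the window lay at +284.4 kb (chr2:9593924-9594484, intergenic), at the 95.2nd percentile of all OCRs by mean level. It had 43.5 and 68.4 CPM in LI, 65.2 and 54.0 in pancreas, 74.2 and 64.7 in lung, 70.3 and 96.7 in BM, and 28.5 and 43.8 in SI. The SI libraries were the lowest apart from a small overlap with LI. BM exceeded SI by 1.21 ± 0.25 on the log2 scale (adjusted p = 0.0021), lung exceeded it by 0.94 ± 0.25 (0.0122), and LI by 0.63 ± 0.25 (0.131). The adjusted p over tissues was 0.0108, and 0.0515 without BM replicate 2. Being lower in SI than in each other tissue was lost without SI replicate 1, LI replicate 2 or pancreas replicate 1, and with library size alone.

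The OCR at +304.2 kb (chr2:9574097-9574635) was open in lung and nearly closed in SI. Its levels were 9.72 and 8.92 CPM in lung, 5.06 and 6.43 in LI, 3.67 and 3.27 in BM, 3.18 and 3.99 in pancreas, and 1.35 and 2.02 in SI. Lung lay above and SI below all other libraries (adjusted p = 1.71e-04). Lung exceeded SI by 2.45 ± 0.33 on the log2 scale (adjusted p = 7.19e-05) and its nearest tissue, LI, by 0.69 ± 0.30 (adjusted p = 0.165). The lung call was lost without LI replicate 1 or either lung library, while the SI call held in each setting. Lung was also highest at +194.2 kb, the widest OCR, with 43.8 and 45.5 CPM against 22.5 and 17.1 in SI (adjusted p = 0.00914), but both of its tissue calls were lost in several settings.

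SI was also the low tissue at +160.5 kb, +421.6 kb and +579.4 kb. At +160.5 kb it had 3.90 and 4.15 CPM, against 6.95 to 14.2 in the other libraries, with pancreas highest at 14.2 and 13.2 (adjusted p = 3.15e-04). At +421.6 kb it had 1.59 and 1.88 CPM, against 3.08 to 7.12 elsewhere (adjusted p = 0.0198; 0.0638 without SI replicate 1). At +579.4 kb it had 8.57 and 13.1 CPM, against 13.4 to 23.3 elsewhere, and the test over 5 tissues did not pass (adjusted p = 0.0615).

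BM was the low tissue at the OCR of +510.4 kb (chr2:9367882-9368485), in an intron of the noncoding gene Gm13219. It had 25.0 and 28.6 CPM in BM, against 63.6 and 72.3 in LI, 77.9 and 48.7 in pancreas, 51.1 and 54.3 in lung, and 41.2 and 60.7 in SI. Both BM libraries lay below all others, and the other tissues overlapped or lay close together. LI exceeded BM by 1.34 ± 0.24 on the log2 scale (adjusted p = 5.77e-04), pancreas by 1.25 ± 0.24, lung by 0.98 ± 0.23 and SI by 0.93 ± 0.23 (adjusted p = 0.00767). The adjusted p over tissues was 0.00227, and the call held in each setting tried.

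Further out, 4 OCRs lie within a few kb of each other at +700.6, +701.8, +702.5 and +703.4 kb. The last was lower in BM than in each other tissue, with 2.89 and 3.54 CPM, against 6.10 and 11.8 in LI, 10.1 and 11.4 in pancreas, 7.68 and 11.3 in lung, and 6.69 and 4.91 in SI. BM did not overlap any tissue (adjusted p = 0.00374), and the call was lost without BM replicate 1 or SI replicate 1 and once trends in mean count were taken out. At +702.5 kb pancreas (19.1 and 20.2 CPM) and LI (17.7 and 14.6) stood above BM (7.29 and 8.14), lung (8.31 and 11.2) and SI (7.85 and 10.6). The adjusted p over tissues was 0.00126 there, while +701.8 kb stayed between 6.03 and 9.36 CPM in all libraries (adjusted p = 0.585).

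At +728.6 kb (chr2:9149766-9150286) pancreas was the most open tissue. Levels were 9.89 and 11.5 CPM in pancreas, 4.74 and 5.88 in lung, 6.19 and 5.30 in LI, 1.61 and 2.85 in BM, and 2.02 and 1.95 in SI. Pancreas lay above all others, LI and lung in between, and BM and SI at the bottom (adjusted p = 9.84e-05). Pancreas exceeded SI by 2.43 ± 0.34 and BM by 2.25 ± 0.33 on the log2 scale (adjusted p = 1.07e-04 and 1.92e-04). It exceeded lung by 1.01 ± 0.31 (adjusted p = 0.069) and LI by 0.90 ± 0.32 (adjusted p = 0.151), and neither passed. The pancreas call was lost without pancreas replicate 2, LI replicate 2 or lung replicate 1.

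The reverse was seen at +130.1 kb, where pancreas had 5.18 and 5.28 CPM against 8.14 to 18.5 elsewhere (adjusted p = 0.00331). Its neighbour at +128.5 kb was more open and did not pass the test, at 22.3 to 44.0 CPM (adjusted p = 0.586). At +52.8 kb lung had 2.82 and 3.17 CPM against 3.40 to 6.99 elsewhere, and the test over 5 tissues did not pass (adjusted p = 0.1). The farthest OCR, at +819.9 kb, had 7.83 and 7.01 CPM in pancreas and 2.40 to 6.21 in the others (adjusted p = 0.032), and did not pass in 5 of the other settings tried.

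**Figure D4:**
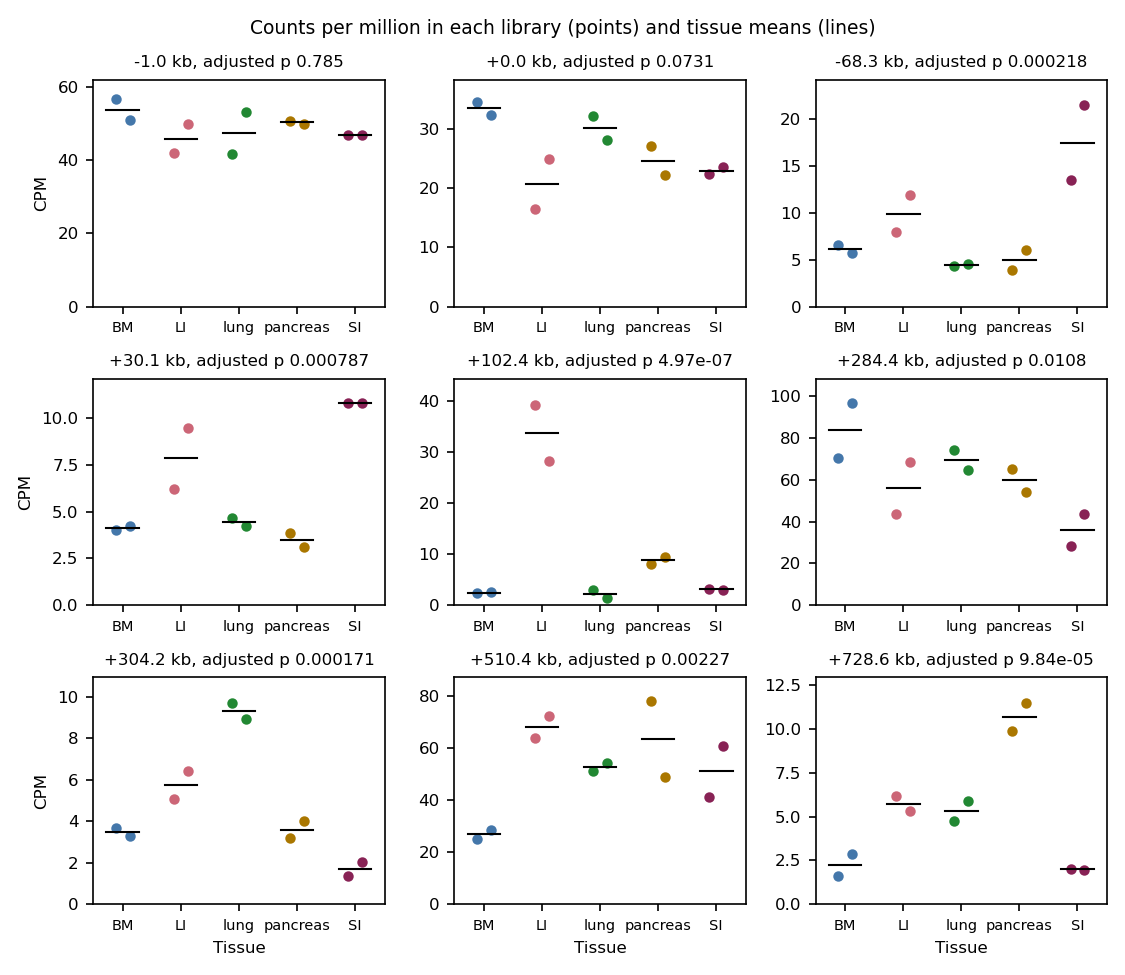
CPM of each library (points) and tissue mean (lines) at 9 OCRs, with the adjusted p over 5 tissues. The promoter panel shows tissue levels near each other, and the TSS panel runs from a mean of 20.7 CPM in LI to 33.4 in BM. LI stands apart at +102.4 kb, lung at +304.2 kb, BM at +510.4 kb, pancreas at +728.6 kb and SI at -68.3 kb.

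Levels were also compared between OCRs across libraries. Over the 10 libraries, log2 CPM at the -1.0 kb promoter OCR had a median r of -0.04 with the other 60 OCRs of the window (range -0.60 to 0.63). The libraries share their tissues, and these r are descriptions. At the -1.0 kb OCR the tissue means had an SD of 0.09 on the log2 scale, below the 0.14 between replicates. Its r values therefore cannot show whether other OCRs follow the promoter across tissues. Pairs of OCRs within 5 kb of each other had a median r of 0.59 (23 pairs, -0.31 to 0.92), against 0.26 for pairs over 100 kb apart (1479 pairs, -0.75 to 0.94). Among 10192 promoter OCRs with a mean of at least 5 CPM, those most like the summed level of the 12 OCRs beyond 600 kb were at Olfr1258 (r = 0.96), St3gal1 (0.96), Mir361 (0.95), Srxn1 (0.93) and an OCR assigned to Il5 (0.93). Il5 codes for the eosinophil growth factor made by ILC2s. Those most like the promoter OCR were at BB557941 (0.91), Tnfrsf10b (0.87), Caprin1 (0.84), a tRNA cluster (0.84) and Cox7b (0.84). None of these passed the test for a difference among tissues (adjusted p from 0.127 to 0.68), and neither did the -1.0 kb OCR.

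The AP-1 letters were found in a larger share of the window's OCRs than of the table's. AP-1 factors are dimers of the Fos, Jun and Batf families induced by activation. In the 300 bases around the centre, 18 of the 61 OCRs (29.5%) held TGANTCA, against 18.3% of all OCRs and 21.7% of those away from promoters. The window's OCRs had a median GC content of 43.4%, against 49.8% over the table with promoters included. The part of base composition in the shares of this and the other strings was not tested. Of the 36 OCRs that differed among tissues 16 (44.4%) held it, and of the other 25 only 2 (8.0%). Away from promoters, the shares over the whole table were 29.1% of called and 14.9% of uncalled OCRs. By tissue mean, pancreas was highest at 9 and LI at 8 of the 18 OCRs with the letters, and lung at the remaining 1. The other 43 OCRs were highest in LI at 13, pancreas at 11, BM at 8, SI at 6 and lung at 5. Over all OCRs away from promoters, LI was highest at 29.3% of those with the letters and at 14.7% of those without, and pancreas at 26.3% and 17.7%. Having 4 matches, as at +102.4 kb, was seen in 60 OCRs of the table (0.12%).

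The other strings were counted in the same way. Shares in brackets are those of the window and of the table's OCRs away from promoters. AGATAA was found in 16 OCRs (26.2% against 20.4%), 14 of them downstream of the gene, with 3 matches at +500.5 kb and 2 each at +18.3 kb and +819.9 kb. AGGTCA was in 14 OCRs (23.0% against 20.1%), TGTGGT in 18 (29.5% against 33.6%), AGGAAG, the core of ETS factors, in 24 (39.3% against 43.9%) and CTTTGA, bound by TCF factors, in 16 (26.2% against 19.6%). GCGTG, the core bound by AHR, was in 11 (18.0% against 23.0%) and GGGTG, bound by KLF factors, in 28 (45.9% against 55.6%). The -114.0 kb OCR held no AP-1 match and 6 matches to GGGTG.

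Among genes that act with GATA3, the most open promoter OCR differed among tissues at 3 of 11 regulators or partners that had such an OCR, against 31.7% of promoter OCRs of the table. These were Zbtb16, coding for PLZF (20.2 and 24.0 CPM in BM, 14.1 and 15.4 in pancreas, 5.52 to 8.19 in the others; adjusted p = 2.66e-05), Zfpm1, coding for the GATA cofactor FOG1 (adjusted p = 0.00258), and Rora (adjusted p = 0.0231). Each was highest in BM. The most open promoter OCRs of Tcf7, Id2, Bcl11b, Ets1, Runx1, Tox, Nfil3 and Stat6 did not pass, although a less open one of Bcl11b did (adjusted p = 0.0232), and Notch1 and Gfi1 had no promoter OCR in the table.

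Of 12 target genes 5 passed at their most open promoter OCR. Klrg1, an inhibitory receptor and part of the SI gate, had 7.58 and 8.70 CPM in BM and 22.4 to 55.4 elsewhere (adjusted p = 3.29e-05). Il1rl1, which codes for the IL-33 receptor ST2 and was in every gate but that of SI, had 2.84 and 3.03 CPM in SI and 5.67 to 27.0 elsewhere (adjusted p = 4.09e-05). Il2ra, coding for CD25, was highest in pancreas (adjusted p = 0.0181), and Il4 and Il9r in BM (0.0018 and 0.0401). The less open promoter OCRs of Il9r were highest in pancreas and did not pass (adjusted p = 0.0841 and 0.197). The most open promoter OCRs of Il5, Il13, Areg, Maf, Icos, Il7r and Il17rb did not pass. Il5 had a less open promoter OCR that did (adjusted p = 0.00902), with 10.5 and 9.06 CPM in pancreas, 3.23 and 3.91 in BM and 3.80 to 7.60 elsewhere, and this is the OCR named above for its likeness to the distal sum.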

How the data were processed

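ATAC-seq counts of 10 libraries were analysed. Per the paper and the submitters' processing notes, the authors checked reads with FastQC 0.11.9, mapped them to mm10 with Bowtie2 2.2.9, kept uniquely mapped reads, handled files with SAMtools 1.8, called peaks with MACS2 2.1.1, kept peaks found in both replicates, merged the tissues' peaks and counted reads per peak. Removal of duplicate or mitochondrial reads and a shift of reads for the transposase are not given in the sources used here. The deposited values are raw counts of 50039 regions, with coordinates printed as the table gives them. PCR reads without molecular identifiers are not independent molecules.

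Regions with at least 1 count (49981) were fitted with edgeR 4.0.16 in R 4.3.3 (TMM, glmQLFit, glmQLFTest, tissue as the only factor), with Benjamini-Hochberg adjustment over the whole table. The script was tested on simulated data. Promoters begin 1000 bp before a RefSeq TSS and end 100 bp after it, and motif letters were sought in 300 bases around each centre. DESeq2 1.42.0, other scalings and filters, a replicate block and leaving out each library were alternatives. Named regions were both promoter regions, the 3 most open, the 6 with the smallest p, the 2 with the largest p among the more open regions, up to 2 per tissue call and direction, and the nearest and farthest downstream. Others described were chosen after their values were seen. The members, gene lists and motifs were chosen with earlier results of these data known. Tissues were compared with 2 libraries each, and the check of pairing is given with the alternatives.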

Additional observations from a re-analysis of the deposited data

How the results depend on the processing

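With 2 libraries per tissue, a lone remaining library was assumed to vary like the other groups. The count of regions that differed over 5 tissues (36) was 29 to 38 under the other scalings, filters, DESeq2 and the trends removed, 18 at an adjusted p under 0.01, and 26 to 42 with a library left out. Regions higher in LI than BM (30) numbered 12 once trends in width and GC content were removed and 7 to 34 with a library left out. With the replicate number as a block, 36 regions passed, 35 of them shared, and regions higher in pancreas than BM went from 16 to 20 and intestinal ones from 2 to 3. Differences between replicates correlated above 0.1 in 4 of 10 tissue pairs (BM and LI 0.125, LI and lung 0.155, lung and SI 0.175, LI and SI 0.196) and at -0.218 to 0.0876 in the others. The labels tie no number to a shared litter, batch or day, so the block was kept as an alternative only.

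Tissue calls rested on few regions. With adjusted p in each contrast, 1 region stayed lower in BM and 2 lower in SI, while the counts became 0 for higher in SI, lung and pancreas, lower in lung, and higher in both intestinal tissues. With library size alone, the counts were 4 lower in BM, 2 higher in LI, 2 higher and 3 lower in SI, 0 lower in lung and 1 intestinal. Higher in lung fell to 1 with DESeq2, with its size factors and with either trend removed. Once trends in mean count were removed there were 2 higher in LI, 0 lower in lung and 1 intestinal, and once those in width and GC content were removed 2 higher in BM and 1 intestinal. With edgeR on the 4 libraries of each comparison, 3 were higher in LI and 2 in pancreas. Leaving out a library gave 1 to 3 lower in BM, 1 to 5 higher in LI, 0 to 2 higher and 3 to 9 lower in SI, 0 to 2 higher and 0 to 1 lower in lung, 0 to 2 higher in pancreas and 0 to 3 intestinal. Removal of either kind of trend was chosen after seeing the data, as were all settings of the LI and BM count. For the named regions, 583 values kept their direction and side of the threshold, 59 lost and 4 gained the call, and none turned its direction. The cause was not tested.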
